A study of Rattus norvegicus with 12 samples.

Results

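Expression of 10 genes of the NFκB system was followed in neonatal rat ventricular myocytes (NRVMs) after knockdown of the zinc transporter Slc39a2 and under phenylephrine (PE). The 10 genes were taken by symbol from the 18483 genes measured. They comprised the 5 NFκB subunits (Nfkb1, Nfkb2, Rela, Relb and Rel), 3 inhibitors of the IκB family (Nfkbia, Nfkbib and Nfkbie), the feedback inhibitor Tnfaip3 and the IKK-related kinase Ikbke. RNA was sequenced from 4 groups of 3 independent cultures, 12 samples in all. NRVMs came from wild-type neonatal Sprague-Dawley rats, and every culture had been transfected with an siRNA, so that siNeg (negative control siRNA) and siSlc39a2 (siRNA of 1 sequence against Slc39a2) differed in its target. In the siNeg PE and siSlc39a2 PE groups, PE, an α1-adrenergic agonist that induces cardiomyocyte hypertrophy, was added 12 h after transfection for 36 h, per the labels, while the study's culture methods give a longer treatment. All 10 genes passed the filter on low counts, which kept 13967 genes.

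NFκB is a family of dimeric transcription factors that is held in the cytoplasm by IκB proteins. Signals from cytokine and pattern recognition receptors activate the IκB kinase (IKK), IκB is phosphorylated and degraded, and the dimers enter the nucleus and bind κB motifs in DNA. Among the genes that NFκB induces are several of its own inhibitors and subunits, which makes the pathway a negative feedback loop. In the heart the pathway is known for its part in inflammation, hypertrophy and cell survival.

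Promoters of 8 of the 10 genes (all but Relb and Ikbke) were read from the RefSeq sequences of build GRCr8, which is not the build of the counts. Each holds 300 bases on the strand of the gene, 250 before and 50 after the first base of the transcript. The κB consensus, searched on both strands, matched in 5 of these 8 promoters (Nfkb1, Nfkb2, Rel, Nfkbia and Tnfaip3) and in 5.02% of 33469 promoters of the same length. The narrower form GGG, any 2 bases and TTTCC, which overlaps the consensus but allows any base after the GGG and was chosen after the sequences had been read, matched in the same 5 promoters and in 1.53% of all promoters. The core of the interferon response element, GAAA, any 2 bases and GAAA on both strands, matched in 0 of the 8 and in 3.92% of all promoters. Promoters of Nfkbia and Tnfaip3 are shown because these genes moved most, those of Nfkb1 and Nfkb2 because they encode the precursor subunits, and that of Rela because it held no match. Capitals mark κB matches, which on the opposite strand read as the reverse complement.
Nfkbia, chr6:78597023-78597322, minus strand: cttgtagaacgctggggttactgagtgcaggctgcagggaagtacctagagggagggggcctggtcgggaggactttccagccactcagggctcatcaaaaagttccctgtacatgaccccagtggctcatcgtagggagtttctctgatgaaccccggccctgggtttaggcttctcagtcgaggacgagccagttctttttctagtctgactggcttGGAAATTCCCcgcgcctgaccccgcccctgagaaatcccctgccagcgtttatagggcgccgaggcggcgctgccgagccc
Tnfaip3, chr1:15543930-15544229, minus strand: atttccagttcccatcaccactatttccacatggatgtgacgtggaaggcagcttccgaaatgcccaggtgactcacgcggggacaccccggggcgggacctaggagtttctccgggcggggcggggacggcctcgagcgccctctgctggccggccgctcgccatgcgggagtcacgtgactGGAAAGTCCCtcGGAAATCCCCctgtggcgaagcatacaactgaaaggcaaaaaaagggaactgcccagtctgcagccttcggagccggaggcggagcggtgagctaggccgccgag
Nfkb1, chr2:226805413-226805712, minus strand: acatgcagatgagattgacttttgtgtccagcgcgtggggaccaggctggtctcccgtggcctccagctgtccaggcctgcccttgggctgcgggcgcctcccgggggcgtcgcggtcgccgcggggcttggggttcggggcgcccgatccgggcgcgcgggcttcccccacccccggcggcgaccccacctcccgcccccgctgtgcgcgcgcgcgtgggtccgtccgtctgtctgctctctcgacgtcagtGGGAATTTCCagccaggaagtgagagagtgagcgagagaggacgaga
Nfkb2, chr1:255108124-255108423, plus strand: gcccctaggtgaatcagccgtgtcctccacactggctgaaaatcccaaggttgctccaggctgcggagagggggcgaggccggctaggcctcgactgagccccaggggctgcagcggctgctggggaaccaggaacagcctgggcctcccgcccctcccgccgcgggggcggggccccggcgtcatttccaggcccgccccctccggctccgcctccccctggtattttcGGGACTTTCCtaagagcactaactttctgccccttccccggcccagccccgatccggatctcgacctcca
Rela, chr1:212354086-212354385, plus strand: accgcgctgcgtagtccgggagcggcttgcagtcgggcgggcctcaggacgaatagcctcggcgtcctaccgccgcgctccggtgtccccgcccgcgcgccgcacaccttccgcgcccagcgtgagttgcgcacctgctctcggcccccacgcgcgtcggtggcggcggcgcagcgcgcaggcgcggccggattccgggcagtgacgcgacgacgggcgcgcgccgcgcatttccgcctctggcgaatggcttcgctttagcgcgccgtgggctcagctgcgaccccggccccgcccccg
Counted from the first base of the transcript, the match in Nfkbia lay at bases -31 to -22 and the match in Nfkb2 at bases -20 to -11. Tnfaip3 held 2 matches, at bases -67 to -58 and -55 to -46, and that of Nfkb1 lay after the start at bases 4 to 13. Rel held 4 matches in 2 regions, at bases -219 to -210 and -82 to -72. Rela, Nfkbib and Nfkbie held none in this window.

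**Figure D1:**
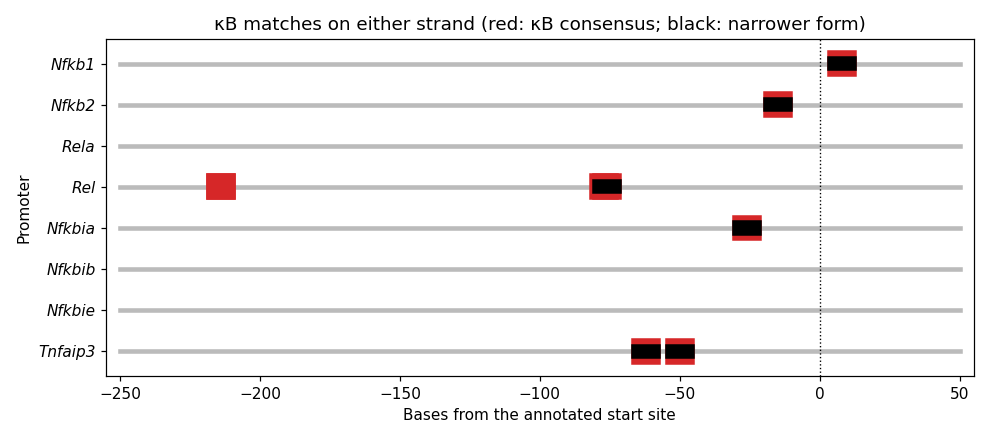
Position of matches to the κB consensus in the promoters of 8 NFκB genes, in bases from the start site of the transcript (x axis), with 1 row per gene. Matches in Nfkb2, Nfkbia and Tnfaip3 lie within 70 bases before the start, Rel holds a further region upstream, and Rela, Nfkbib and Nfkbie hold none.

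Samples held 24065539 to 28603854 expected counts. Levels below are given as CPM, counts scaled to the library size after TMM normalization, or as deposited FPKM. FPKM are scaled to gene length and library size, without TMM normalization. Counts of Slc39a2 were 50, 50 and 59 for siNeg against 21, 11 and 2 for siSlc39a2, and under PE 95, 198 and 182 for control against 31, 25 and 38 for knockdown cultures. The log2 fold change was -2.35 without PE (SE 0.46, edgeR adjusted p = 0.00098) and -2.33 with PE (SE 0.38, edgeR adjusted p = 0.000224). The 8 cardiomyocyte markers, all tested, summed to 51513 to 53282 CPM in control and 41456 to 42583 CPM in knockdown cells without PE, and to 58049 to 63098 and 60346 to 64677 CPM with PE. After knockdown, 3 of these 8 were lower and 0 higher without PE, and 3 lower and 1 higher with PE. Myh6 and Actc1, named after their values were seen, averaged 8199 and 19125 CPM in siNeg PE. In siSlc39a2 PE they averaged 3673 and 26003 CPM. Without PE, Myh6 averaged 15858 CPM in siNeg and 7407 CPM in siSlc39a2. The 8 fibroblast markers summed to 13859 to 18345 CPM in control and 5338 to 5643 CPM in knockdown cells without PE, and to 9171 to 11754 and 3582 to 4949 CPM with PE. Most of this sum was collagen, with Col1a1, Col3a1 and Col1a2 at 10756, 3534 and 1746 CPM in siNeg. Pdgfra and Tcf21, named after their values were seen, averaged 41.1 and 27.4 CPM in siNeg and 44.7 and 34.7 in siSlc39a2. They averaged 68.5 and 17.3 CPM in siNeg PE and 56.4 and 24.8 in siSlc39a2 PE. The 9 macrophage markers measured summed to 88.7 to 125 CPM in control and 46.9 to 58.5 CPM in knockdown cells without PE, and to 43.5 to 56.7 and 35.1 to 41.4 CPM with PE, with none at 0 in all samples of a group. Of the 8 fibroblast markers, 6 were lower and 1 higher after knockdown, both without and with PE. With PE in control cells, 4 were lower and 2 higher. Of 8 macrophage markers tested, 4 were lower and 0 higher after knockdown without PE and also with PE in control cells. After knockdown with PE, 2 were lower and 0 higher. Over all genes, knockdown without PE left 26.4% lower and 22.8% higher. These shares were 28.1% and 29.2% after knockdown with PE, and 25.7% and 24% with PE in control cells. The part of these cell types in the results was not tested. In these bulk samples, fewer cells of a type and less RNA per cell cannot be told apart. Markers of endothelial cells (6 genes) summed to between 13.6 and 20.9 CPM and 2 lymphocyte markers to at most 0.0758 CPM.

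In FPKM, the subunit Rela was the most abundant of the 10 transcripts in unstimulated control cells, at 40.5 ± 1.06 FPKM (SD, n = 3). Nfkbia followed at 22.1 ± 2.18 FPKM, Nfkb2 at 20.7 ± 0.442, Nfkbib at 17.2 ± 1.04, Relb at 15.7 ± 1.53 and Nfkb1 at 15.2 ± 1.2 (SD, n = 3 each). Nfkbie was at 6.60 ± 0.569 FPKM and Tnfaip3 at 2.79 ± 0.106. Ikbke, at 0.847 ± 0.0306 FPKM, and Rel, at 0.42 ± 0.0755, were the lowest, and Rel had only 25 to 36 counts per siNeg sample. After knockdown, Nfkbia rather than Rela was the highest of the 10, at 69.0 ± 4.83 FPKM against 45.4 ± 4.39 (SD, n = 3 each).

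**Figure D2:**
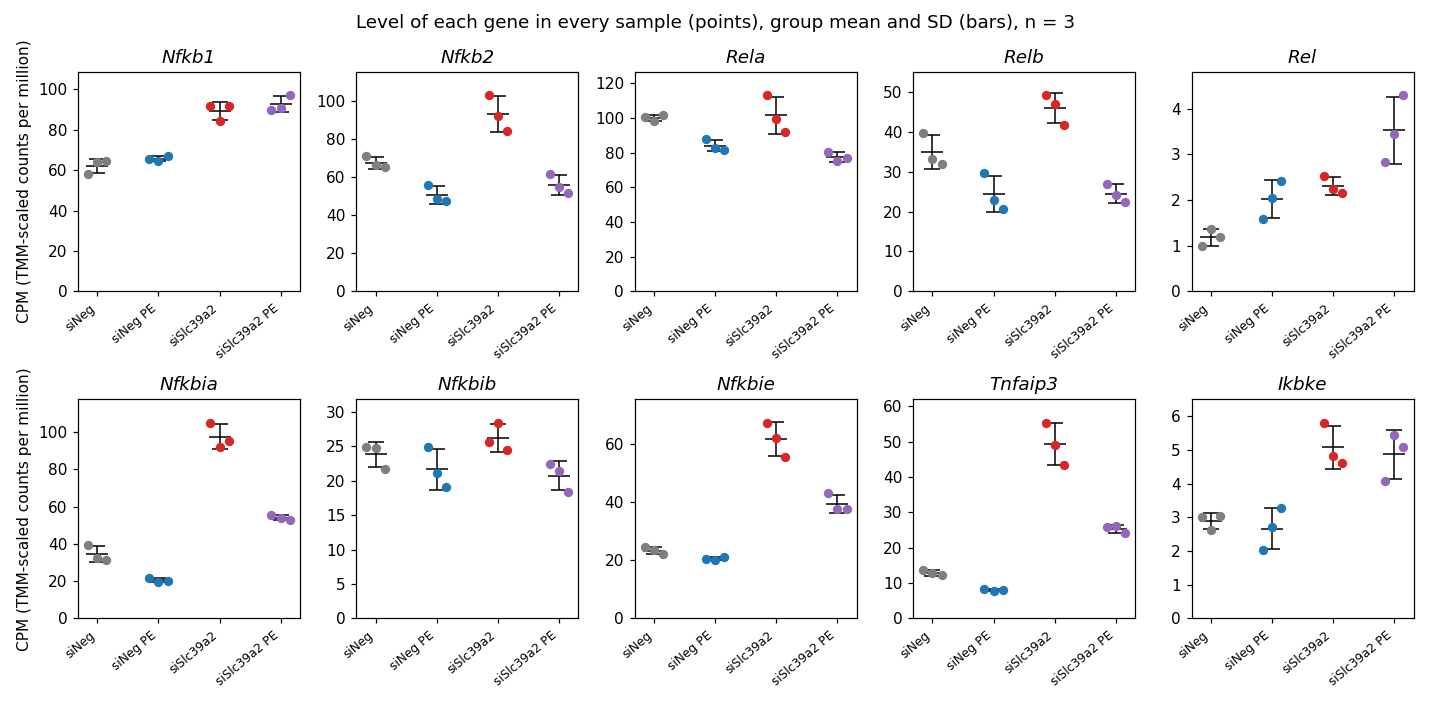
Level of each of the 10 NFκB genes in every sample (y axis, CPM from 0, a panel per gene) by group (x axis), with points for the 3 samples and bars for their mean and SD. Nfkbia, Nfkbie and Tnfaip3 are highest in siSlc39a2 and next highest in siSlc39a2 PE, without overlap, whereas Rela and Nfkbib vary least.

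The first comparison asked how knockdown of Slc39a2 changed the NFκB genes without PE. Of the 10, 8 rose after knockdown and 0 fell at an adjusted p below 0.05, where 22.8% of all genes tested were higher and 26.4% lower. Tnfaip3, Nfkbia and Nfkbie were also more than 2-fold higher, a size that 4.57% of all genes reached upwards and 5.21% downwards. The median log2 fold change of the 10 genes was 0.67, with a range from 0.02 to 1.94, against -0.02 over all genes tested. The median log2 fold change was 1.40 over the 3 inhibitors, of which Nfkbib moved by only 0.14, and 0.46 over the 5 subunits, of which Rel moved by 0.96.

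Nfkbia encodes IκBα, the inhibitor that is degraded and resynthesized within the feedback loop. It was at 39.3, 32.6 and 31.5 CPM in the siNeg samples and at 105, 92.1 and 95 CPM in the siSlc39a2 samples. The groups lay far apart, with a 2.83-fold higher level after knockdown (log2 fold change 1.5, SE 0.09, edgeR adjusted p = 2.42e-08). Nfkbie encodes IκBε, a further inhibitor of the family. Its level was 24.4, 23.6 and 22.1 CPM in siNeg and 67.4, 62.0 and 55.7 CPM in siSlc39a2, a log2 fold change of 1.40 (SE 0.09, edgeR adjusted p = 3.51e-08). The counts of Nfkbie were not whole numbers in any sample, for a reason that was not tested, and its size is uncertain. Nfkbib, which encodes IκBβ, was at 24.9, 24.7 and 21.7 CPM in siNeg and at 25.6, 28.4 and 24.4 CPM in siSlc39a2. These groups overlapped (log2 fold change 0.14, 95% interval -0.12 to 0.39, edgeR adjusted p = 0.329), and Nfkbib was the only inhibitor of the 3 that did not pass the test in this comparison.

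Tnfaip3 encodes A20, a ubiquitin-editing enzyme that ends signalling from TNF and TOLL-like receptors to IKK. Of the 10 genes it moved most, from 13.7, 12.7 and 12.2 CPM in siNeg to 55.3, 49.1 and 43.5 CPM in siSlc39a2. Its lowest siSlc39a2 sample was above every siNeg sample, with a 3.83-fold higher level (log2 fold change 1.94, SE 0.09, edgeR adjusted p = 3.2e-09).

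Among the subunits, Nfkb1 and Nfkb2 encode the precursors p105 and p100 of the DNA-binding subunits p50 and p52. Nfkb1 was at 57.9, 64.0 and 64.3 CPM in siNeg and 92.0, 84.2 and 91.8 CPM in siSlc39a2, a log2 fold change of 0.53 (SE 0.07, edgeR adjusted p = 2.68e-05). Nfkb2 was at 71.2, 66.2 and 65.3 CPM in siNeg and 103, 92.3 and 84.3 CPM in siSlc39a2, a log2 fold change of 0.46 (SE 0.09, edgeR adjusted p = 0.00128). For both genes every knockdown sample lay above every control sample.

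Rel, Relb and Rela encode the subunits c-Rel, RelB and p65, which carry transactivation domains. Rel was higher by a log2 fold change of 0.96 (SE 0.22, edgeR adjusted p = 0.00324), but from few reads, with 25, 36 and 30 counts in control and 73, 66 and 55 in knockdown samples. Relb, the partner of p52, was at 39.9, 33.2 and 32.0 CPM in siNeg and 49.2, 47.1 and 41.8 CPM in siSlc39a2 (log2 fold change 0.40, SE 0.13, edgeR adjusted p = 0.0219). This smallest of the 8 calls was lost when siNeg replicate 2 or 3 or siSlc39a2 replicate 1 or 2 was left out (edgeR adjusted p between 0.0572 and 0.0816), and the counts of Relb were not whole in any sample. Rela was at 100, 98.3 and 102 CPM in siNeg and 113, 99.5 and 92.2 CPM in siSlc39a2. Its groups overlapped, with a log2 fold change of 0.02 (95% interval -0.14 to 0.19, edgeR adjusted p = 0.818), so that the most abundant subunit in control cells was 1 of the 2 genes that did not pass. Without siSlc39a2 replicate 1, the only sample in which its count was not whole, the value was -0.06 and still did not pass.

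Ikbke encodes IKKε, a kinase related to IKK that also phosphorylates interferon regulatory factors. Control samples held 76, 69 and 77 of its counts and knockdown samples 168, 142 and 118, without overlap. Its log2 fold change was 0.82 (SE 0.18, edgeR adjusted p = 0.0028), a 1.76-fold higher level.

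**Figure D3:**
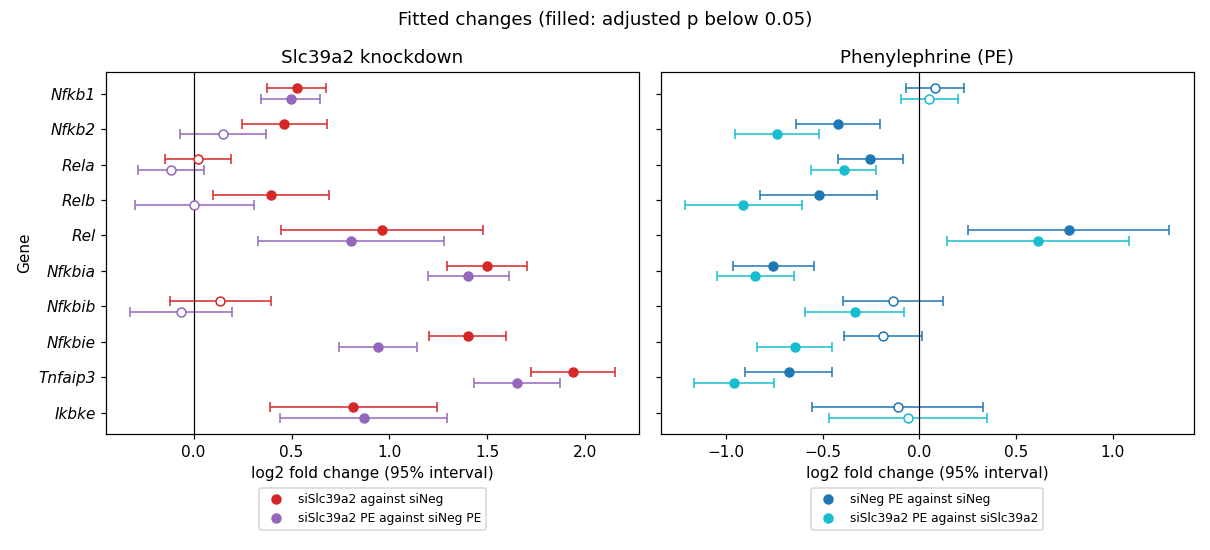
Log2 fold change of each of the 10 NFκB genes with its 95% interval, with filled points at an adjusted p below 0.05. The knockdown without and with PE is at left, and PE without and with the knockdown at right. Tnfaip3, Nfkbia and Nfkbie lie furthest to the right for both knockdown comparisons, and Rel is the only gene to the right for both PE comparisons with intervals clear of 0.

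The second comparison asked for the effect of knockdown in cells treated with PE. Of the 10 genes, 6 were higher in siSlc39a2 PE than in siNeg PE and 0 were lower, where 29.2% of all genes tested were higher and 28.1% lower. These 6 (Tnfaip3, Nfkbia, Nfkbie, Ikbke, Rel and Nfkb1) were also among the 8 that were higher without PE. Tnfaip3 and Nfkbia were more than 2-fold higher, as were 6.03% of all genes, with 5.58% more than 2-fold lower. The median log2 fold change of the 10 genes was 0.65, against 0.01 over all genes tested.

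Tnfaip3 rose from 8.25, 7.88 and 8.07 CPM in siNeg PE to 25.8, 26.2 and 24.1 CPM in siSlc39a2 PE (log2 fold change 1.65, SE 0.10, edgeR adjusted p = 2.28e-08). Nfkbia rose from 21.5, 19.5 and 20.3 CPM to 55.6, 53.8 and 52.8 CPM (log2 fold change 1.40, SE 0.09, edgeR adjusted p = 5.85e-08). Nfkbie rose from 20.4, 20.1 and 21.1 CPM to 43.1, 37.7 and 37.7 CPM (log2 fold change 0.94, SE 0.09, edgeR adjusted p = 1.68e-06). In each of these genes the lowest knockdown sample lay above the highest control sample. The kinase Ikbke had 55, 77 and 89 counts in siNeg PE and 109, 158 and 140 in siSlc39a2 PE (log2 fold change 0.87, SE 0.18, edgeR adjusted p = 0.00153).

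Of the subunits, only Nfkb1 and Rel passed the test with PE. Nfkb1 was at 65.7, 64.5 and 67.0 CPM in siNeg PE and 89.9, 90.9 and 97.1 CPM in siSlc39a2 PE (log2 fold change 0.50, SE 0.07, edgeR adjusted p = 3.91e-05). Rel had 43, 58 and 66 counts in siNeg PE and 76, 100 and 118 in siSlc39a2 PE (log2 fold change 0.81, SE 0.21, edgeR adjusted p = 0.00491). Nfkb2 had overlapping groups at 55.8, 48.3 and 47.3 CPM against 61.7, 54.7 and 51.6 CPM (log2 fold change 0.15, 95% interval -0.07 to 0.37, edgeR adjusted p = 0.191). Relb was at 29.6, 23.0 and 20.8 CPM against 26.9, 24.3 and 22.3 CPM, with a log2 fold change of 0.00 (95% interval -0.30 to 0.31, edgeR adjusted p = 0.981). Rela and the inhibitor Nfkbib did not pass either. Rela was at 87.7, 82.9 and 81.4 CPM against 80.6, 75.3 and 76.6 CPM, groups that did not overlap but differed by a log2 fold change of only -0.12 (95% interval -0.28 to 0.05, edgeR adjusted p = 0.189). Nfkbib had a log2 fold change of -0.06 (95% interval -0.32 to 0.20, edgeR adjusted p = 0.648).

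The third comparison asked what PE did to the same genes in control cells. Of the 10 genes, 5 were lower in siNeg PE than in siNeg (Nfkbia, Tnfaip3, Relb, Nfkb2 and Rela) and 1 was higher (Rel), where 25.7% of all genes tested were lower and 24% higher. None of the 10 reached a 2-fold change, against 3.8% of all genes upwards and 2.8% downwards. The median log2 fold change was -0.22, against -0.01 over all genes tested. This comparison shares the siNeg samples with the knockdown comparison without PE.

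Nfkbia and Tnfaip3, which were higher after knockdown, were lower with PE in every sample given above. Nfkbia fell to 0.593 times its siNeg level (log2 fold change -0.75, SE 0.09, edgeR adjusted p = 4.03e-05) and Tnfaip3 to 0.626 times (log2 fold change -0.68, SE 0.10, edgeR adjusted p = 0.00017). Relb fell by 0.52 on the log2 scale (SE 0.13, edgeR adjusted p = 0.00621) and Nfkb2 by 0.42 (SE 0.09, edgeR adjusted p = 0.00311). Rela fell by 0.25 (SE 0.07, edgeR adjusted p = 0.0124), a call that was lost without siNeg PE replicate 3 (edgeR adjusted p = 0.052) and in limma on quantile-normalized FPKM (adjusted p = 0.0794 and 0.0999 with pseudocounts of 1 and 0.1). Rel, the c-Rel gene, went the other way, with a log2 fold change of 0.77 (SE 0.23, edgeR adjusted p = 0.0134), and lost its call without siNeg replicate 1 (0.0552) or siNeg PE replicate 3 (0.0634). Nfkbie had a log2 fold change of -0.19 (95% interval -0.39 to 0.01, edgeR adjusted p = 0.09) and Nfkb1 one of 0.08 (95% interval -0.07 to 0.23, edgeR adjusted p = 0.304). Nfkbib and Ikbke had overlapping groups, with log2 fold changes of -0.13 and -0.11 (edgeR adjusted p = 0.332 and 0.646).

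In knockdown cells, PE lowered 7 of the 10 genes and raised 1, where 29.3% of all genes tested were lower and 30.7% higher. The 5 genes that PE lowered in control cells were among the 7, which further held Nfkbib and Nfkbie, and Rel was again the 1 that was higher. The median log2 fold change of the 10 genes was -0.52, against 0.01 over all genes tested. Tnfaip3 fell by 0.96 on the log2 scale (SE 0.09, edgeR adjusted p = 2.88e-06), to 0.515 times its level in siSlc39a2. Relb fell by 0.91 (SE 0.13, edgeR adjusted p = 9.31e-05) and Nfkbia by 0.85 (SE 0.09, edgeR adjusted p = 6.16e-06). Nfkb2 fell by 0.74 (SE 0.09, edgeR adjusted p = 3.9e-05), Nfkbie by 0.64 (SE 0.08, edgeR adjusted p = 4.34e-05) and Rela by 0.39 (SE 0.07, edgeR adjusted p = 0.000609). The fall of Nfkbib, by 0.34 (SE 0.11, edgeR adjusted p = 0.0201), was lost without siSlc39a2 PE replicate 3 (0.0836) or siSlc39a2 replicate 2 (0.088). The rise of Rel, by 0.61 (SE 0.20, edgeR adjusted p = 0.0198), was lost without siSlc39a2 PE replicate 3 (0.0992) or siSlc39a2 replicate 2 (0.0586) or 3 (0.0675). Nfkb1 and Ikbke had overlapping groups, with log2 fold changes of 0.05 and -0.06 (edgeR adjusted p = 0.501 and 0.79).

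Whether the effect of knockdown differed with PE was tested by an interaction, the knockdown effect with PE less that without PE. None of the 10 genes passed an adjusted p of 0.05 in edgeR (0 of 10, with 3.61% of all genes called), while 2 of 10 had an unadjusted p below 0.05. DESeq2 called 1 of the 10 (Nfkbie) and limma on FPKM called 0 with either pseudocount. The nearest was Nfkbie, at -0.46 (SE 0.12, edgeR adjusted p = 0.0573, DESeq2 adjusted p = 0.0122), and edgeR called it without siSlc39a2 PE replicate 1 (adjusted p = 0.0293) or siSlc39a2 replicate 3 (0.0185). Relb, at -0.39, Nfkb2, at -0.31, and Tnfaip3, at -0.28, were the next furthest from 0 (edgeR adjusted p = 0.323, 0.267 and 0.317). A block for replicate number, added to the edgeR fit, gave 3 of 10 calls: Nfkb2, Relb and Nfkbie (edgeR adjusted p = 0.025, 0.0338 and 0.0142). The estimate of the main fit was negative for 9 of the 10 genes, while 7619 of 13967 genes tested had a positive one. The 10 genes were measured in the same libraries, so their signs are not independent. For Nfkbia it was -0.10, with a 95% interval of -0.38 to 0.19.

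The order of the 4 groups separated the genes. Nfkbia and Tnfaip3 were highest in siSlc39a2, then siSlc39a2 PE, siNeg and siNeg PE, and each step of that order passed the test. Nfkbia stood at 97.4 ± 6.77, 54.1 ± 1.39, 34.5 ± 4.23 and 20.4 ± 1.01 CPM in that order (SD, n = 3 each). Tnfaip3 stood at 49.3 ± 5.94, 25.4 ± 1.11, 12.9 ± 0.755 and 8.07 ± 0.187 CPM. Nfkbie had the same order, at 61.7 ± 5.85, 39.5 ± 3.09, 23.4 ± 1.17 and 20.5 ± 0.490 CPM, but its last step did not pass (edgeR adjusted p = 0.09). In siSlc39a2 PE, Tnfaip3 thus remained 1.97-fold above the untreated control (edgeR adjusted p = 8.21e-07), Nfkbie 1.69-fold (edgeR adjusted p = 4.04e-06) and Nfkbia 1.57-fold (edgeR adjusted p = 1.91e-05).

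Relb and Nfkb2 were highest in siSlc39a2, but in siSlc39a2 PE they lay below siNeg, with log2 fold changes of -0.51 and -0.27 (edgeR adjusted p = 0.003 and 0.019). For Nfkb2 this step was lost without siNeg replicate 1 (edgeR adjusted p = 0.0645) or siSlc39a2 PE replicate 2 (0.0591) or 3 (0.0778). Between siSlc39a2 PE and siNeg PE the samples of both genes overlapped. Rel was highest in siSlc39a2 PE, at 3.52 ± 0.731 CPM, and lowest in siNeg, at 1.18 ± 0.188 CPM (SD, n = 3 each), a 2.98-fold difference (edgeR adjusted p = 2.39e-05). Its levels in siSlc39a2 and siNeg PE, 2.30 ± 0.198 and 2.02 ± 0.419 CPM, overlapped. Nfkb1 and Ikbke were higher in both knockdown groups than in both control groups. Nfkb1 was at 92.6 ± 3.89 and 89.3 ± 4.43 CPM in the knockdown groups with and without PE, and at 65.7 ± 1.24 and 62.1 ± 3.64 CPM in the control groups. For Nfkb1, neither of these pairs differed beyond the test's threshold (edgeR adjusted p = 0.501 and 0.304), though its siNeg PE samples all lay above its siNeg samples. For Nfkbib no step between neighbours passed, and its group means spanned only 0.34 on the log2 scale, against 2.59 for Tnfaip3.

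The balance of inhibitor and subunit transcripts was described by summed FPKM, without a test. In control cells the 5 subunits summed to 92.5 ± 0.447 FPKM without and 81.4 ± 3.42 FPKM with PE, and in knockdown cells to 125 ± 8.72 and 88.8 ± 2.45 FPKM (SD, n = 3 each). The 3 IκB inhibitors summed to 45.9 ± 2.31 and 36.7 ± 1.78 FPKM in control cells without and with PE, and to 108 ± 5.94 and 64.7 ± 3.33 FPKM in knockdown cells. Per FPKM of subunits there were thus 0.496 ± 0.0263 FPKM of inhibitors in siNeg and 0.451 ± 0.00324 in siNeg PE, against 0.870 ± 0.0189 in siSlc39a2 and 0.729 ± 0.0237 in siSlc39a2 PE. All 6 knockdown samples lay above all 6 control samples in this ratio. Nfkbia made up 46.4 to 50.8% of the inhibitor FPKM in control cells and 37 to 38.9% with PE, against 61.5 to 65% in knockdown cells and 55.3 to 59% with PE. These sums include Nfkbie and Relb, whose counts were not whole in any sample. FPKM were not scaled by the TMM factors, which were 0.927 to 0.960 in siNeg and 1.04 to 1.07 in siSlc39a2. The sums therefore rise more from siNeg to siSlc39a2 than TMM-scaled values would. Rela, for example, averaged 40.5 FPKM in siNeg and 45.4 in siSlc39a2, but 100 and 102 CPM. The ratio is taken within each sample, so such a scale does not change it.

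**Figure D4:**
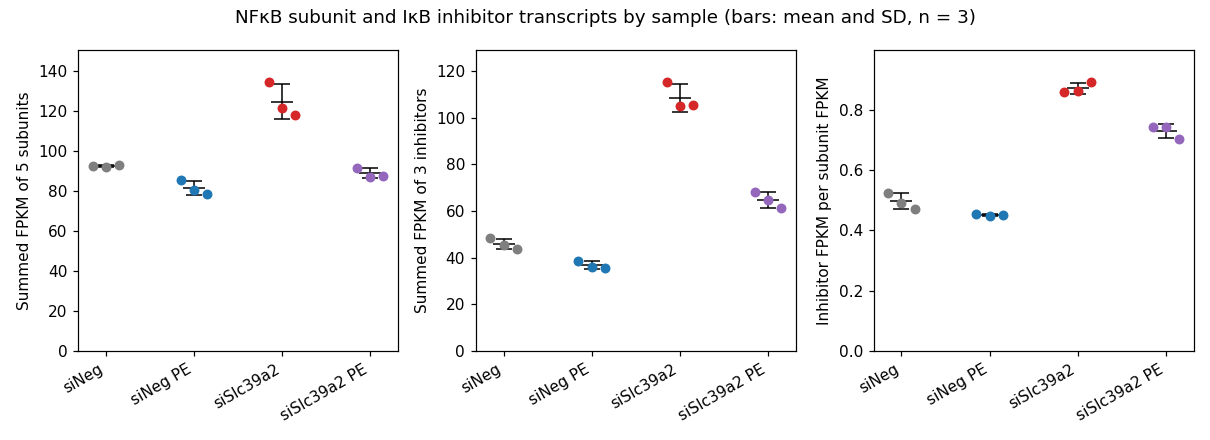
Summed FPKM of the 5 subunits (left), summed FPKM of the 3 IκB inhibitors (middle) and their ratio (right), 1 point per sample, by group, with bars for the mean and SD. FPKM are without TMM normalization, which raises both sums in siSlc39a2 relative to siNeg but leaves the ratio unchanged. The siSlc39a2 samples lie highest in all 3 panels, and the siSlc39a2 PE samples lie just below the siNeg samples in subunits (88.8 against 92.5 FPKM on average) but above them in inhibitors (64.7 against 45.9).

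For the 4 genes whose group means spanned more than 1 on the log2 scale, the genes of closest pattern were sought over the 12 samples, by the root mean square difference of centred log2 CPM among 7990 or 7991 genes with whole counts and a mean log2 CPM above 1. Tnfaip3 was closest to Irf1, a transcription factor of the interferon response, with a difference of 0.096, then C2 (0.14) and Trafd1 (0.16). Nfkbia was closest to Tcirg1 (0.151), Icam1 (0.167), an adhesion molecule, and Psmf1 (0.177). Nfkbie was closest to Sdc4 (0.103), Foxs1 (0.107) and Slc20a2 (0.123). Rel was closest to Dicer1 (0.107), Smg1 (0.124) and Fam204a (0.128). All these patterns are over the same 12 libraries.

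The rest of the pathway was followed through 5 hand-written lists. The IKK complex itself (Chuk, Ikbkb and Ikbkg) had 0 of 3 genes called after knockdown without PE, beside 22.8% higher and 26.4% lower over all genes. With PE, 1 of 3, Chuk, the gene of the catalytic subunit IKKα, was higher after knockdown, beside 29.2% higher and 28.1% lower over all genes. Its log2 fold change was 0.51 (SE 0.17, edgeR adjusted p = 0.0193), and its groups overlapped. Leaving out siNeg PE replicate 1 or 3 or siSlc39a2 PE replicate 3 ended that call, with 0 of 3 genes called. PE alone also raised Chuk, by 0.69 (SE 0.17, edgeR adjusted p = 0.00652), as 1 of 3, beside 24% higher and 25.7% lower over all genes.

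Of 12 ligands and receptors measured, 8 were tested, and 5 were higher after knockdown and 0 lower (median log2 fold change 0.70), beside 22.8% higher and 26.4% lower over all genes. Tnfrsf1b, which encodes TNF receptor 2, rose from 6.49 ± 0.489 to 15.99 ± 0.728 CPM (SD, n = 3 each, log2 fold change 1.30, edgeR adjusted p = 1.71e-07). Of the ligands, Ltb (lymphotoxin β) had 0, 5 and 0 counts in control and 18.75, 16.59 and 18 in knockdown samples. Tnf itself, which was looked at after its values were seen, was also among the 5 called (log2 fold change 6.65, edgeR adjusted p = 0.00765). However, Tnf had 7, 0 and 0 counts in control and 462.24, 0.04 and 328.16 in knockdown samples. Its groups thus overlapped, its samples disagreed and its counts were not all whole. With PE, 4 of the 8 were higher after knockdown and 0 lower, beside 29.2% and 28.1% over all genes (7 were called without the filter on low counts, which tests more of the list), led by Il1rap, the IL-1 receptor accessory protein (log2 fold change 1.2, SE 0.19, edgeR adjusted p = 0.000148). PE alone lowered 2 and raised 0, beside 25.7% lower and 24% higher over all genes, a count that ranged from 1 to 4 when single samples were left out, with 1 without siNeg replicate 1 or 3 or siNeg PE replicate 3 and 4 without siNeg PE replicate 1.

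Of 24 genes listed for the relay of signals from receptors to IKK, 12 were higher and 2 lower after knockdown without PE (median log2 fold change 0.31). Over all genes, 22.8% were higher and 26.4% lower. With PE, 13 were higher and 2 lower (median 0.40), beside 29.2% and 28.1%. Tbk1, Tank, Azi2 and Traf3, which are not plain relays to IKK, were among the 12 and among the 13. Whether each listed gene relays signals to IKK in these cells was not tested. Birc2, which encodes the ubiquitin ligase cIAP1, had log2 fold changes of 1.06 and 1.18 (SE 0.14 and 0.13, edgeR adjusted p = 3.85e-05 and 1.08e-05). Its counts were not all whole. With PE, Malt1, a protease of the CARD-BCL10 complex, and Tbk1, the kinase most like IKKε, also passed 2-fold (log2 fold changes 1.09 and 1.02, edgeR adjusted p = 0.00463 and 0.000131). The counts of Malt1 were not all whole. PE alone raised 7 of the 24 and lowered 8, shares near the 24% higher and 25.7% lower over all genes.

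Among 14 genes listed as other inhibitors and brakes of the pathway, 7 were higher and 0 lower after knockdown without PE (median 0.26). Over all genes, 22.8% were higher and 26.4% lower. With PE, 6 were higher and 1 lower (median 0.23), beside 29.2% and 28.1%. Tnip3, an A20-binding protein, held 2, 0 and 1 counts in control samples and 21, 11 and 12 after knockdown, and with PE 1, 1 and 0 against 12, 26 and 16. Nfkbiz, which encodes the nuclear IκBζ, rose with knockdown by 1.30 without PE (SE 0.23, edgeR adjusted p = 0.000541) and 1.17 with PE (SE 0.21, edgeR adjusted p = 0.000394), and also with PE alone by 1.31 (SE 0.23, edgeR adjusted p = 0.000678). Cyld, a deubiquitinase that limits IKK activation, rose in the same 3 comparisons, by 1.13, 1.08 and 1.06 (edgeR adjusted p = 0.000131, 9.36e-05 and 0.000347), and its counts were not all whole. Nfkbiz and Cyld were thus higher with PE, and Nfkbia and Tnfaip3 lower. Nfkbiz and Bcl3, both among the 7, encode nuclear IκB proteins that are not only inhibitors. Whether each listed gene acts as a brake in these cells was not tested. PE alone raised 5 of the 14 genes and lowered 3, beside 24% and 25.7% over all genes, and the total of 8 became 5 without siNeg replicate 1 or without siNeg PE replicate 3.

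Known NFκB target genes had the highest median after knockdown. Of 24, 21 were tested, and 15 were higher and 1 lower after knockdown both without PE (median log2 fold change 1.21) and with PE (median 1.00). Over all genes, 22.8% were higher and 26.4% lower without PE, and 29.2% and 28.1% with PE. The 1 lower gene, named after its values were seen, was Mmp9, a matrix protease (-1.16 and -1.56, edgeR adjusted p = 0.0136 and 0.00322). Ccl2, a chemokine that attracts monocytes, rose from 27.5 ± 1.40 CPM in siNeg to 521 ± 22.2 in siSlc39a2 and from 24.7 ± 0.542 in siNeg PE to 423 ± 19.3 in siSlc39a2 PE (SD, n = 3 each). Its log2 fold changes were 4.24 and 4.10 (SE 0.07 each, edgeR adjusted p = 1.24e-13 and 1.84e-13). Vcam1, an adhesion molecule whose counts were not all whole, had log2 fold changes of 3.63 and 2.98 (edgeR adjusted p = 8.84e-10 and 5.62e-09). The chemokine Cxcl1 rose by 3.01 without PE (SE 0.12, edgeR adjusted p = 3.04e-10), and Birc3, which encodes cIAP2 and whose counts were not all whole, by 2.27 with PE (SE 0.13, edgeR adjusted p = 1.73e-08). PE alone raised 3 of the 21 targets and lowered 5, shares no higher than the 24% and 25.7% over all genes, with Ccl20 and Cxcl1 more than 2-fold higher (log2 fold changes 1.35 and 1.01, edgeR adjusted p = 0.00108 and 4.36e-05).

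**Figure D5:**
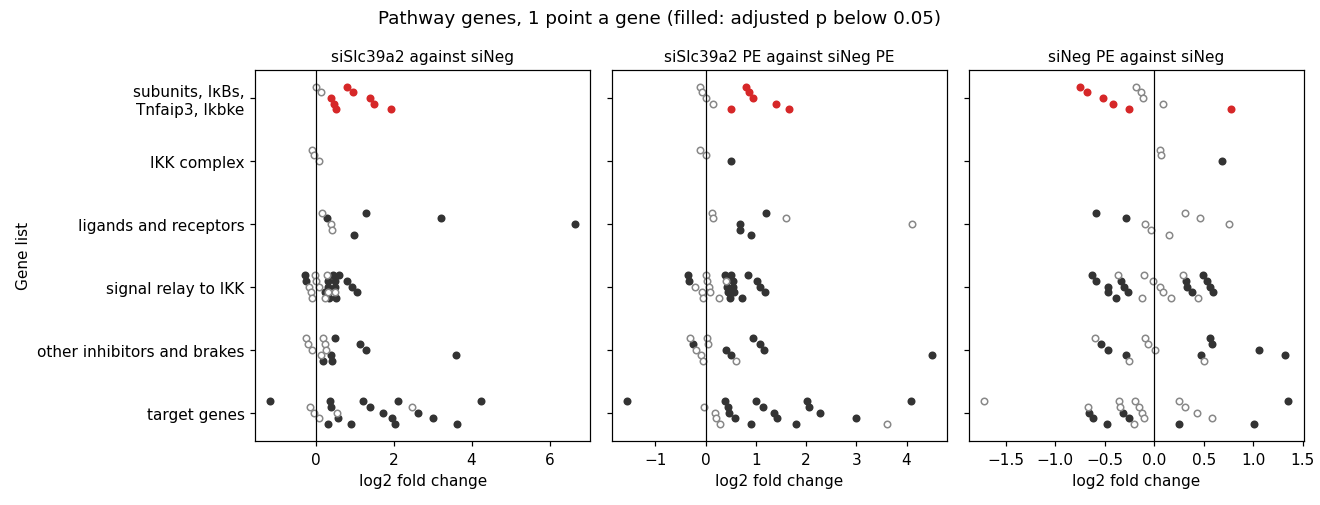
Log2 fold change of every tested gene of the 10 NFκB genes and of the 5 pathway lists, 1 point per gene, filled at an adjusted p below 0.05, for knockdown without PE, knockdown with PE and PE in control cells, with a scale of its own in each panel. Target genes have the highest median after knockdown (1.21 without PE and 1.00 with PE), and the IKK complex has medians of -0.03 and 0.00.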

How the data were processed

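RNA-seq of 12 NRVM samples in 4 groups of 3 was analysed from processed values. The deposited gene table holds expected counts, not normalized, and 70% of genes had whole numbers in every sample. Why the others did not was not tested. The authors also deposited FPKM values, scaled to gene length and library size. Per the labels' processing notes, HISAT, Bowtie2 and Rnor_6.0 were used. The counting program and annotation are not given in the sources used here.

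Counts were rounded to whole numbers, filtered by filterByExpr, normalized by TMM and fitted with edgeR 4.0.16 (R 4.3.3) in 1 model of the 4 groups (8 residual degrees of freedom). Each comparison used its quasi-likelihood test, with p-values adjusted by Benjamini-Hochberg over all 13967 genes tested. SE is the log2 fold change divided by the square root of F. A gene was called at an adjusted p below 0.05. Named genes are the 10 members, Slc39a2, the IKK complex, the 3 genes closest in pattern to each member spanning more than 1 on the log2 scale and, in each other list and comparison, up to 3 genes with the largest called changes past 2-fold whose groups did not overlap. Others are said to be named after their values were seen. The members, lists and tests were chosen with earlier results of these data known. CPM carry counting error, which is largest for Rel and Ikbke.

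Alternatives were DESeq2 1.42.0, RLE factors, no filter, the groups of the comparison alone, a replicate block, limma 3.58.1 on quantile-normalized log2(FPKM + 1) or log2(FPKM + 0.1), and leaving out each sample. Fits were tested on simulated data. No replicates agreed within counting noise, so none was counted as a copy. Intervals are 95% limits of the edgeR fit.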

Additional observations from a re-analysis of the deposited data

Results flagged for a closer look

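None of the 10 NFκB genes differed in its knockdown effect between cells with and without PE at an adjusted p below 0.05 in the main edgeR fit. By the interaction, 4 of 70 tested genes of the pathway lists (5.71%) did, beside 3.61% of all genes. These 4 were picked after their values were seen. The knockdown effect on Cx3cl1, a membrane-bound chemokine whose counts were not all whole, was 2.03 on the log2 scale without PE and 1.00 with PE. The difference was -1.02 (SE 0.15, edgeR adjusted p = 0.00214). For Cxcl1 it was 3.01 and 2.06, a difference of -0.94 (SE 0.16, edgeR adjusted p = 0.00496). For Tnfrsf1b it was 1.30 and 0.69, a difference of -0.61 (SE 0.13, edgeR adjusted p = 0.023), which was lost without siNeg replicate 2, siNeg PE replicate 2, siSlc39a2 PE replicate 2 or siSlc39a2 replicate 1 or 2 (edgeR adjusted p between 0.0665 and 0.0754). For Zc3h12a, which encodes an RNase that degrades inflammatory transcripts, it was 0.42 and -0.19, a difference of -0.61 (SE 0.14, edgeR adjusted p = 0.0265), which was lost without siNeg replicate 2, siNeg PE replicate 1 or 2, siSlc39a2 PE replicate 2 or siSlc39a2 replicate 1 or 2 (edgeR adjusted p between 0.0506 and 0.0856) and in limma with a pseudocount of 0.1 (adjusted p = 0.062).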

How the results depend on the processing

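In the 4 comparisons of groups, the number of the 10 NFκB genes called stayed within 1.5 times the reported number under every alternative (7 to 8 after knockdown, 6 after knockdown with PE, 4 to 6 for PE and 6 to 8 for PE in knockdown cells when single samples were left out). The interaction called 0 genes, but 1 with DESeq2, 3 with the replicate block and 0 to 1 when single samples were left out. Same-numbered samples were not paired in the main fit. Their deviations from the group means correlated by -0.09 to 0.32 (median 0.039, 8 of 18 pairs over 0.1). Samples of different number correlated by -0.249 to 0.236 (median -0.022, 5 of 36 pairs over 0.1). Of 12 samples, 7 correlated best with their own number. Whether same-numbered samples shared a preparation was not tested, and the main fit does not allow for it. Over all genes, the interaction called 504 in the main fit and 1053 with the replicate block. With the replicate block, the interactions of Nfkb2, Relb and Nfkbie (adjusted p = 0.025, 0.0338 and 0.0142), the knockdown effect with PE on Nfkb2 (0.025) and the PE effect on Nfkbie (0.0408) passed. The sign turned only in values that did not pass before or after. Relb after knockdown with PE was 0.00 with RLE factors, -0.06 and -0.07 in limma with pseudocounts of 1 and 0.1, and -0.10 to 0.16 without single samples. Ranges without single samples that crossed 0 were those of Rela after knockdown (-0.06 to 0.14), Nfkbib after knockdown with PE (-0.15 to 0.05), Ikbke for PE (-0.28 to 0.05), PE in knockdown cells (-0.15 to 0.05) and the interaction (-0.11 to 0.22), and Nfkb1 for the interaction (-0.07 to 0.02). The call of Relb after knockdown was also lost in limma with a pseudocount of 0.1 (adjusted p = 0.0558). Why these values moved was not tested. Settings for the pathway lists, for the 2 comparisons used only to order groups and for single samples of the FPKM ratio were added after seeing the data. Of the list counts, the IKK complex after knockdown with PE was 2 in limma with a pseudocount of 1 and 0 to 1 without single samples. Ligands and receptors came to 7 after knockdown with PE without the filter, to 4 for PE with the replicate block and 1 to 4 without single samples, and for the interaction to 2 with the block, 2 in limma with a pseudocount of 1 and 0 to 2 without single samples. Other brakes came to 5 to 8 for PE without single samples and, for the interaction, to 0 in limma with a pseudocount of 0.1 and 0 to 1 without single samples. Low counts limit Rel, Ikbke, Ltb and Tnip3, and counts that are not whole limit Relb, Nfkbie and Tnf.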
